A study of Homo sapiens with 6 samples.

Results

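The genes described here carry a cell's sterol supply from acetyl-CoA to the finished sterol and onwards to its transport, storage and export. They are 35 genes picked by name for these roles, by a rule that sets no threshold on their values but was written with earlier results of these data known, and they fall into 7 enzymes of the mevalonate pathway, 12 enzymes that turn its product into sterol, 7 genes of SREBP control, 4 genes of transport and storage, and 5 genes of LXR and efflux. All 35 were among the 23152 genes of the table, and all 35 passed the filter on low counts which left 14467 genes tested in all.

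Cholesterol is built on the endoplasmic reticulum. When sterol there runs low, SCAP escorts the precursors of the SREBP transcription factors to the Golgi, where a pair of proteases release the active factor, and when sterol is plentiful the INSIG proteins hold SCAP back. Cholesterol that enters with lipoproteins leaves lysosomes through NPC1 and NPC2, surplus is esterified by SOAT1, and oxysterols switch on the LXR receptors, whose targets export sterol.

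RNA was sequenced from T24 cells, an established line of human bladder cancer, in 3 samples labelled vector and 3 labelled oeRNF112, that is, made to overexpress the ubiquitin ligase RNF112. The labels give neither genotype changes nor a time after transfection, and the protocol attached to every sample speaks of siRNA, which the group labels do not. The study's methods describe a Flag-tagged RNF112 plasmid and an empty plasmid for other T24 experiments and do not say whether the sequenced cells carried these. All cells were grown in medium with fetal bovine serum, a source of lipoprotein cholesterol for both groups. As a check of the labels, RNF112 itself was at 27, 19 and 24 counts in vector against 29753, 36963 and 31712 counts in oeRNF112, where reads of the introduced construct may be included. Total counts lay between 40029547 and 41259569, at which a count of 0 allows up to 0.0727 to 0.0749 CPM by counting error alone. Nothing says that the 3 samples of a group were separate cultures, so the p-values measure the spread between these samples only, which may be technical. Among markers of the labelled cell type, KRT7 and KRT18 were abundant, while CDH1 had at most 1 count.

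**Figure D1:**
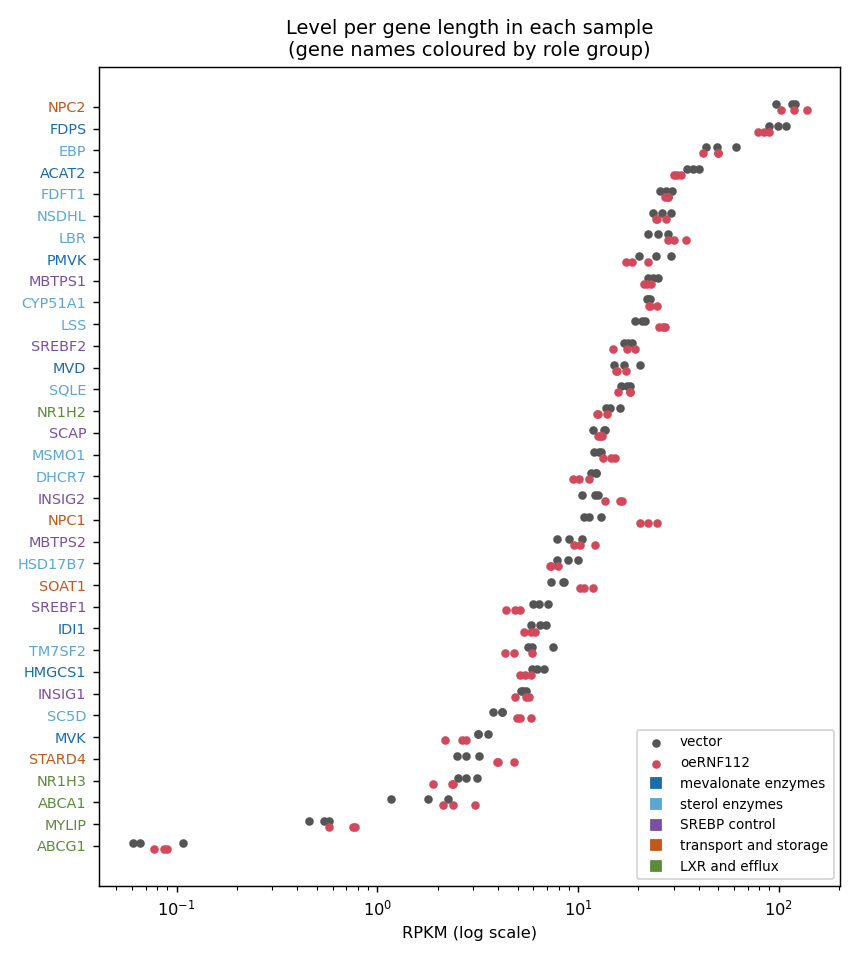
Level of each of the 35 genes in RPKM (reads scaled by gene length and library total, log axis), with 1 point per sample, ordered by the vector mean and with names coloured by role. NPC2 and FDPS had the highest vector means, 111 and 99.4 RPKM, and ABCG1 the lowest, 0.0778 RPKM.

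By RPKM, the scale that allows genes to be compared with each other, the 35 genes spanned a wide range in the vector samples. The highest was NPC2 at 111 ± 12.7 RPKM (SD, n = 3), followed closely by FDPS at 99.4 ± 9.50 RPKM, and these 2 did not differ beyond their spread. EBP came next at 51.5 ± 9.07 RPKM and ACAT2 at 37.6 ± 2.70 RPKM. At the low end were STARD4 and NR1H3, both at 2.82 RPKM, ABCA1 at 1.73 RPKM, MYLIP at 0.525 RPKM and ABCG1 at 0.0778 RPKM. Enzymes stood at both ends of this order, from FDPS down to SC5D at 4.06 and MVK at 3.30 RPKM, while the efflux transporters ABCA1 and ABCG1 were among the 3 lowest of the 35. Of the 2 SREBP genes, SREBF2, whose product chiefly drives sterol genes, stood at 17.8 ± 0.819 RPKM and SREBF1, whose product chiefly drives fatty acid genes, at 6.48 ± 0.536 RPKM.

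Counts were compared between the groups with edgeR's quasi-likelihood test after TMM normalization, and adjusted p-values (Benjamini-Hochberg over all 14467 genes) under 0.05 were called. Fold changes below are oeRNF112 against vector, and levels of a gene in single samples are in TMM-normalized CPM (counts scaled to 1 common library size), given for replicates 1, 2 and 3 in turn. Of the 35 genes 9 were called (25.7%), where 18.1% of all genes tested were. Of these, 6 fell (17.1% of the members, against 8.14% of all genes) and 3 rose (8.57%, against 9.97%). The 3 vector and 3 oeRNF112 values stood apart without overlap for 17 members (48.6%, against 36.8%), of which 11 were lower and 6 higher, against 17.9% and 18.9% of all genes. The median log2 fold change was -0.11 over the members and 0.00267 over all genes tested. The falls lay among the synthetic enzymes and SREBF1, and the rises among the genes that move and store cholesterol. With library totals in place of TMM factors the median over all genes was 0.0962, the called genes went from 1442 higher and 1178 lower (55% higher) to 2020 higher and 659 lower (75.4% higher), and the members' calls from 3 higher and 6 lower to 6 higher and 1 lower. In bulk RNA, fewer cells of a kind and less RNA per cell cannot be told apart.

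**Figure D2:**
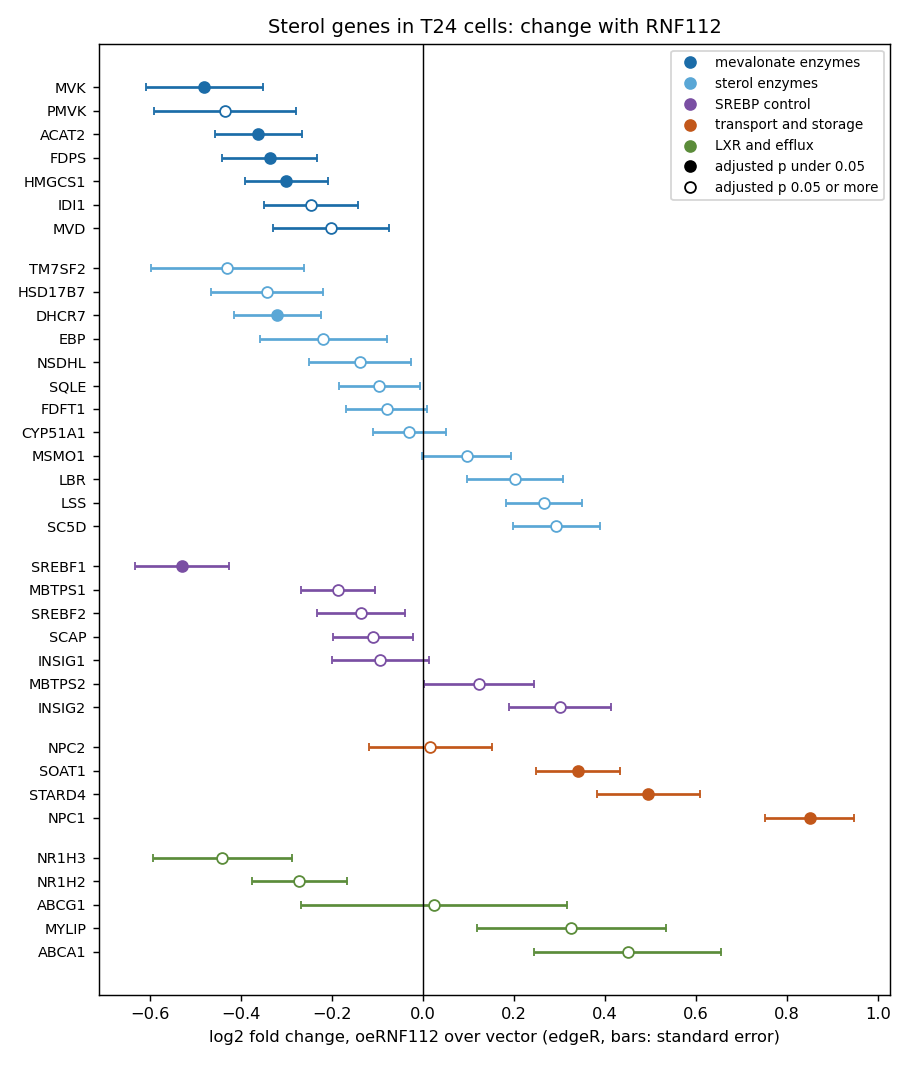
Log2 fold change of each of the 35 genes with its standard error (bars), oeRNF112 against vector, by role, with filled symbols for the 9 called genes. All 7 mevalonate enzymes lie below 0 and all 4 transport and storage genes above 0, with NPC2 at 0.02.

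The promoters of the enzymes shared a feature that the choice of members did not use. RefSeq windows (GRCh38.p14) of 250 bases before to 50 after the start were found for 31 of the 35 genes, and none was found for ACAT2, FDFT1, SQLE and ABCG1. On either strand, the CCAAT box, CCAAT, which the factor NF-Y binds beside SREBP on many sterol genes, occurred in 12 of 16 enzyme windows (75%) and in 6 of the 15 other members' windows (40%), and in 35.7% of all 27305 windows. At least 2 such boxes were found in 9 of the 16 enzyme windows (56.2%) and in 11.3% of all windows. The 4 stretches that follow show these boxes for an enzyme at the head of the pathway and one at its end, for the gene of the sterol SREBP and for a transport gene that rose. Capitals mark CCAAT boxes (ATTGG where the box lies on the other strand) and, in SREBF2, also a sterol regulatory element. HMGCS1 is shown for chr5:43313513-43313662 (minus strand), with 1 of its 2 boxes in view. DHCR7 is shown for chr11:71448436-71448643 (minus strand), inside the span annotated for the gene, which also has a start farther upstream. SREBF2 is shown for chr22:41832855-41833064 (plus strand) and STARD4 for chr5:111512591-111512785 (minus strand).
HMGCS1: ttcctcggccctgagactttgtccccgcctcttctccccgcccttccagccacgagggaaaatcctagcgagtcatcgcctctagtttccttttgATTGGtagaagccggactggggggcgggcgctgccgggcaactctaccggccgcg
DHCR7: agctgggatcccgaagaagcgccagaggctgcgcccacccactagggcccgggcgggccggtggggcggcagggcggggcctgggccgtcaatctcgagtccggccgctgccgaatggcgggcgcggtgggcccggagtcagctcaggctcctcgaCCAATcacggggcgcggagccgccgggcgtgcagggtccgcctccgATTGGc
SREBF2: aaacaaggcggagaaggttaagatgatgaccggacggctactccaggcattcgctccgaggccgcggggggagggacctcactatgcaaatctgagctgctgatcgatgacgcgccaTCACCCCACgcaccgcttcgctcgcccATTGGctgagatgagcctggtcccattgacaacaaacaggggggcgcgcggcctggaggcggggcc
STARD4: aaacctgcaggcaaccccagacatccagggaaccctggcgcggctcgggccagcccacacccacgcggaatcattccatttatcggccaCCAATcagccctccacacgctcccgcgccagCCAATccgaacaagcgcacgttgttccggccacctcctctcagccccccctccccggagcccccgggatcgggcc

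The sterol regulatory element, searched on both strands as TCACNCCAC, matched in 1 of the 31 windows (3.23%, against 1.15% of all windows), that of SREBF2, at 133 to 125 bases before its start. The GC box GGGCGG, which SP1 binds, was in 26 of 31 windows (83.9%), against 44.6% of all windows and 69.3% of the windows of the genes tested. The E-box CACGTG was in 5 of 31 (16.1%), against 7.43% of all and 9.82% of the windows of the genes tested. An LXR element, AGGTCA repeated directly after a spacer of 4 bases, was in none of the 31 and in 0.0183% of all windows. Nor was it in any of the 11415 windows of the genes tested. The search allowed no mismatch, and at so rare a match its absence could not set the members apart. CCAAT boxes were found in windows of genes that fell, such as DHCR7, and of genes that rose, such as STARD4 and SOAT1. The windows of SREBF1 and NPC1, the called members with the smallest p-values in each direction, held GC boxes but none of the other 3 motifs nor a CCAAT box. A match describes letters in a window only.

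The mevalonate pathway condenses acetyl-CoA units and carries them to farnesyl diphosphate, from which sterols and the lipid anchors of many proteins are made. All 7 of its enzymes considered here had a lower fitted level in oeRNF112, with log2 fold changes between -0.48 and -0.20 and a median of -0.34. The test called 4 of them lower (57.1%, against 8.14% of all genes). The summed level of the 7 was 417, 373 and 456 CPM in vector and 324, 354 and 314 CPM in oeRNF112, so that every oeRNF112 sample lay under every vector sample. ACAT2 (chr6:159762045-159779112), which makes the acetoacetyl-CoA that enters the pathway, was at 71.3, 64.4 and 76.7 CPM in vector and 54.9, 58.2 and 52.1 CPM in oeRNF112. This was a log2 fold change of -0.36 (SE 0.0959, adjusted p = 0.0284), or 77.8% of vector. HMGCS1 (chr5:43287470-43313412), the synthase of the next step, was at 42.0, 44.2 and 39.9 CPM and then 32.0, 34.6 and 35.8 CPM, a log2 fold change of -0.30 (SE 0.0917, adjusted p = 0.0474). For both genes the highest oeRNF112 value lay under the lowest vector value.

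MVK (chr12:109573272-109598125), the kinase that phosphorylates mevalonate, had the largest fitted fall of the 7, from 14.3, 13.9 and 16.0 CPM to 11.5, 11.3 and 8.93 CPM. Its log2 fold change was -0.48 (SE 0.129, adjusted p = 0.0296), or 71.6% of vector, with no overlap. FDPS (chr1:155308866-155320665), the synthase of farnesyl diphosphate and the most abundant of the pathway per length, went from 176, 154 and 193 CPM to 138, 149 and 127 CPM, at a log2 fold change of -0.34 (SE 0.104, adjusted p = 0.0492). Vector replicate 2 was the lowest of the vector samples in ACAT2, MVK and FDPS and lay nearest to the oeRNF112 values. The 3 remaining enzymes did not pass the test. PMVK, the second kinase, was at 32.7, 26.1 and 39.1 CPM against 23.0, 28.1 and 21.2 CPM (log2 fold change -0.44, SE 0.156, adjusted p = 0.0811), and its groups overlapped. MVD, the decarboxylase, had -0.20 (adjusted p = 0.301), with overlap, and IDI1, the isomerase, -0.25 (adjusted p = 0.127), with none. ACAT2, MVK and FDPS were each called in 2 of the 6 fits that left out a sample, those without vector or oeRNF112 replicate 2. HMGCS1 was called in 1 of the 6, that without vector replicate 3. Without vector replicate 1 none of these 4 remained called, while without vector replicate 2 PMVK and IDI1 were called and HMGCS1 was not. The strand used in counting was not given, and ACAT2, MVK and FDPS share exon bases with genes on the opposite strand. Of these, MMAB, which shares bases with MVK, fell further than MVK (log2 fold change -0.87, SE 0.119, adjusted p = 0.00141), whereas TCP1 and SOD2, which share bases with ACAT2, had 0.11 and 0.03. FDPS has 8 annotated pseudogenes, between which reads could have been split.

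The 12 enzymes from squalene to cholesterol did not move as a block. Of these, 8 were fitted lower and 4 higher, and the median log2 fold change was -0.09. The test called 1 of them, lower (8.33%, against 8.14% of all genes). Their summed level was 709, 696 and 747 CPM in vector and 711, 731 and 738 CPM in oeRNF112, with overlapping groups, unlike that of the mevalonate enzymes. The gene that passed was DHCR7 (chr11:71427287-71449043), the reductase that turns 7-dehydrocholesterol into cholesterol. It was at 33.6, 34.2 and 35.4 CPM in vector and 26.9, 25.8 and 30.04 CPM in oeRNF112, a log2 fold change of -0.32 (SE 0.095, adjusted p = 0.0431) and 80.1% of vector. The groups were well apart, yet DHCR7 remained called in only 1 of the 6 fits that left out a sample, the fit without oeRNF112 replicate 3.

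LSS and SC5D pointed the other way, though neither passed. LSS, the cyclase that forms the first sterol, lanosterol, was at 101, 106 and 113 CPM in vector and 123, 132 and 130 CPM in oeRNF112 (log2 fold change 0.27, SE 0.0838, adjusted p = 0.0531). SC5D, the desaturase that makes the substrate of DHCR7, was at 31.0, 30.1 and 28.0 CPM and then 34.1, 35.8 and 39.2 CPM (0.29, SE 0.0953, adjusted p = 0.0593). Each was higher in every oeRNF112 sample than in any vector sample, and with library totals or with limma on RPKM values both passed the test. HSD17B7, a ketoreductase of the removal of methyl groups, was at 16.4, 14.03 and 18.2 CPM against 12.4, 13.8 and 12.2 CPM (-0.34, adjusted p = 0.0831), lower without overlap, and it has 2 annotated pseudogenes.

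For the other sterol enzymes the groups overlapped. TM7SF2 and LBR, a pair of reductases for the same step, had log2 fold changes of -0.43 (SE 0.168, adjusted p = 0.104) and 0.20 (SE 0.105, adjusted p = 0.209). TM7SF2 shares exon bases with VPS51 on the same strand, and VPS51 fell (log2 fold change -0.67, adjusted p = 0.0034). FDFT1 and SQLE, the synthase and the oxidising enzyme of squalene, had -0.08 and -0.10, and CYP51A1, the first demethylase after lanosterol, -0.03. The sign for FDFT1 and CYP51A1 turned with library totals and with limma, to 0.01 and 0.06 with library totals. MSMO1 and NSDHL, of the same demethylation steps, had 0.10 and -0.14, and EBP, the isomerase, -0.22 (adjusted p = 0.307). Over all 19 enzymes of both stretches, 15 were fitted lower and 5 were called (26.3%, against 18.1% of all genes), each of them lower (against 8.14%), and the median was -0.22 on the log2 scale.

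**Figure D3:**
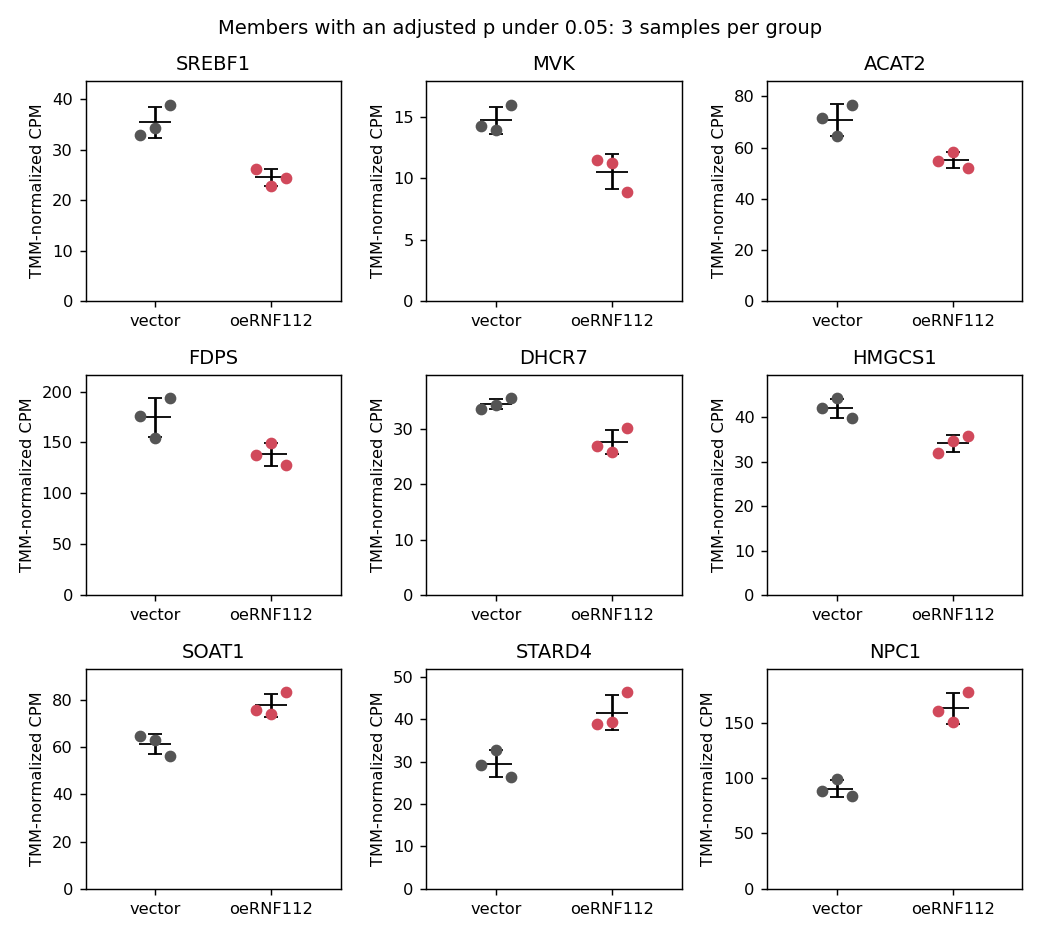
TMM-normalized CPM of the 9 called genes in each sample, 1 panel per gene with its own axis from 0; points are samples, long lines the group means and bars the SD (n = 3 each). In every panel the 3 oeRNF112 points lie all below or all above the 3 vector points, as for NPC1, at 150 to 177 CPM against 84.1 to 98.9 CPM.

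Of the SREBP machinery, only SREBF1 passed the test, and it fell (14.3% of the 7 genes, against 8.14% of all genes). SREBF1 (chr17:17811334-17836986) was at 33.0, 34.3 and 38.9 CPM in vector and 26.2, 22.9 and 24.3 CPM in oeRNF112. This was 69.2% of vector, a log2 fold change of -0.53 (SE 0.103, adjusted p = 0.00757), and no oeRNF112 value reached a vector value. The gene was called in each fit that left out 1 sample. SREBF2 was at 130, 138 and 135 CPM against 124, 108 and 134 CPM (log2 fold change -0.14, SE 0.096, adjusted p = 0.352), where oeRNF112 replicate 3 lay inside the vector range and replicate 2 farthest below it. The ratio of SREBF1 to SREBF2 within a sample, from RPKM values, does not depend on the library scaling. It was 0.352, 0.344 and 0.399 in vector and 0.292, 0.293 and 0.251 in oeRNF112, a fold of 0.764 without overlap. This ratio and 4 more given below were chosen after the values had been seen, and each was tested by a two-sided exact permutation test, for which 3 samples against 3 allow no p under 0.1. The p for SREBF1 to SREBF2 was 0.1.

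The partners of the SREBPs gave a mixed picture in which no further gene passed. INSIG2 was at 46.9, 46.9 and 40.2 CPM in vector and 58.6, 58.8 and 47.7 CPM in oeRNF112 (log2 fold change 0.30, SE 0.111, adjusted p = 0.0892), higher without overlap by a narrow margin in oeRNF112 replicate 3. INSIG1, itself a target of SREBP in many cells, was at 17.7, 16.2 and 17.1 CPM against 14.4, 16.8 and 16.7 CPM (-0.09, adjusted p = 0.569), with overlapping groups. The ratio of INSIG2 to INSIG1 was 2.21, 2.42 and 1.97 in vector and 3.41, 2.94 and 2.39 in oeRNF112, with 1 oeRNF112 sample inside the vector range (exact permutation p = 0.2). Of the 2 Golgi proteases, MBTPS1 was at 131, 134 and 123 CPM against 119, 111 and 111 CPM (-0.19, adjusted p = 0.143), lower without overlap, and MBTPS2 had a log2 fold change of 0.12 (adjusted p = 0.511). SCAP, the escort, had -0.11 (adjusted p = 0.414).

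Transport and storage held the gene with the smallest p of the 35, NPC1, and 3 of its 4 genes rose (75%, against 9.97% of all genes). These were NPC1, whose loss traps cholesterol in lysosomes, STARD4, a soluble carrier of sterol between membranes, and SOAT1, the enzyme that esterifies cholesterol for storage in droplets. NPC1 (chr18:23506184-23586506) went from 88.0, 98.9 and 84.1 CPM to 161, 150 and 177 CPM, a log2 fold change of 0.85 (SE 0.0986, adjusted p = 0.00065), or 1.80-fold. Per length it went from 11.7 ± 1.21 to 22.5 ± 2.26 RPKM (SD, n = 3), from 20th of the 35 genes in vector. The lowest oeRNF112 value was far above the highest vector value, and NPC1 was called each time a sample was left out. NPC1 shares exon bases with RMC1 on the opposite strand, and RMC1 rose too, by less (log2 fold change 0.39, SE 0.0851, adjusted p = 0.0135).

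NPC2, the soluble protein that hands cholesterol to NPC1, did not follow. It was at 176, 141 and 182 CPM in vector and 166, 197 and 141 CPM in oeRNF112 (log2 fold change 0.02, SE 0.135, adjusted p = 0.952), and the sign of its fold change turned when vector replicate 2 or oeRNF112 replicate 2 was left out. The ratio of NPC1 to NPC2 in RPKM was 0.0969, 0.135 and 0.0894 in vector and 0.187, 0.148 and 0.243 in oeRNF112, a fold of 1.79 without overlap (exact permutation p = 0.1). NPC2 was thus the more abundant of the pair per length in every sample. STARD4 (chr5:111496033-111512535) went from 29.2, 32.8 and 26.4 CPM to 39.0, 39.3 and 46.4 CPM, or 1.41-fold (log2 fold change 0.50, SE 0.113, adjusted p = 0.0157). SOAT1 (chr1:179293797-179358680) went from 64.6, 63.0 and 56.4 CPM to 75.8, 73.8 and 83.2 CPM, or 1.27-fold (0.34, SE 0.0929, adjusted p = 0.0318). In both genes oeRNF112 replicate 3 was the highest and vector replicate 3 the lowest, and the groups did not overlap. STARD4 shares exon bases with STARD4-AS1, which had at most 16 counts. STARD4 lost its call without vector replicate 1 and without oeRNF112 replicate 3, and SOAT1 lost it in 4 of 6 such fits.

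Of the 5 genes of LXR and efflux, none passed edgeR's test and 1 was called by DESeq2. An unadjusted edgeR p under 0.05 was found for 2 of the 5, and for 4783 of all 14467 genes tested. NR1H3, the gene of LXR alpha, was at 8.32, 7.33 and 9.41 CPM in vector and 6.51, 6.76 and 5.17 CPM in oeRNF112 (log2 fold change -0.44, SE 0.152, adjusted p = 0.0716). NR1H2, the gene of LXR beta, was at 34.7, 35.2 and 40.7 CPM against 29.5, 33.3 and 28.8 CPM (-0.27, SE 0.104, adjusted p = 0.0983). For both receptors every oeRNF112 value lay under every vector value, and NR1H3 was called by DESeq2, just under the threshold, and without vector replicate 2 (adjusted p = 0.0339). NR1H3 shares exon bases with ACP2 on the opposite strand, which had a log2 fold change of -0.34 (adjusted p = 0.0625). ABCA1, which loads cholesterol onto apolipoprotein particles and is a classic LXR target, was at 19.3, 23.7 and 12.7 CPM against 24.1, 21.8 and 30.3 CPM (0.45, SE 0.205, adjusted p = 0.157). The ABCA1 vector samples were spread widely and its groups overlapped, and without vector replicate 2, the highest of them, ABCA1 was called (adjusted p = 0.0195). MYLIP, the ubiquitin ligase that LXR induces against lipoprotein receptors, had 59 to 100 counts per sample (0.33, adjusted p = 0.302), and ABCG1, a further exporter, 28 to 50 counts (0.02, adjusted p = 0.964). At counts this low only large differences were detectable, and the sign for ABCG1 turned without vector replicate 1, without vector replicate 3 or without oeRNF112 replicate 1.

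**Figure D4:**
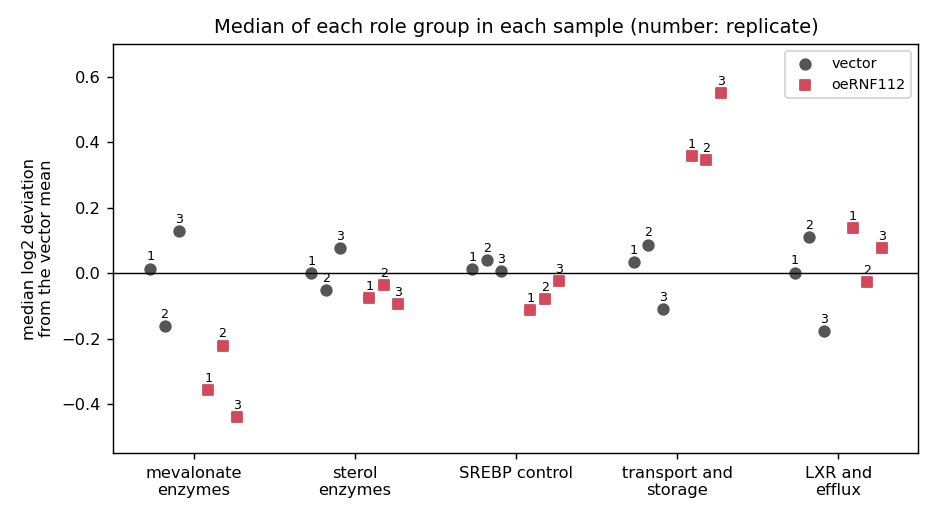
For each role group, the median over its genes of the log2 deviation from the vector mean, in each of the 6 samples (numbers are replicates). The mevalonate medians lie between -0.44 and -0.22 in oeRNF112 and between -0.16 and 0.13 in vector, while the transport and storage medians reach 0.34 to 0.55 in oeRNF112.

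Sample by sample, the role groups separated to different degrees. The median deviation of the mevalonate enzymes from the vector mean was 0.01, -0.16 and 0.13 in vector and -0.36, -0.22 and -0.44 in oeRNF112 on the log2 scale. Vector replicate 2 lay near oeRNF112 replicate 2 there. For transport and storage the medians were 0.04, 0.09 and -0.11 in vector and 0.36, 0.34 and 0.55 in oeRNF112, wide apart. The sterol enzymes (-0.05 to 0.08 in vector, -0.09 to -0.04 in oeRNF112) and the LXR and efflux genes (-0.18 to 0.11 and -0.03 to 0.14) overlapped. Within the enzymes, the ratio of LSS to FDPS in RPKM was 0.194, 0.232 and 0.198 in vector and 0.301, 0.299 and 0.346 in oeRNF112, a fold of 1.52. That of SC5D to DHCR7 was 0.3597, 0.343 and 0.309 in vector and 0.495, 0.542 and 0.509 in oeRNF112, a fold of 1.53. Neither ratio overlapped between the groups (exact permutation p = 0.1 for each, the smallest possible). LSS and SC5D were each higher, and FDPS and DHCR7 each lower, without overlap. The separation of these 2 ratios was thus fixed by the choice of pairs and adds nothing to the single genes.

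Genes around the 35 were looked at through lists of 71 other genes of the pathway, of which 65 were tested and 19 called (29.2%, against 18.1% of all genes). Of the 65, 13 were called lower (20%, against 8.14%) and 6 higher (9.23%, against 9.97%). Of 9 other sterol and isoprenoid enzymes and scaffolds, 1 fell (11.1%, against 8.14% of all genes), ERG28, a scaffold of the demethylation enzymes, from 34.1, 28.95 and 37.6 CPM to 25.7, 26.8 and 23.2 CPM (log2 fold change -0.41, adjusted p = 0.0356). Of 20 other sterol transport genes 3 fell and 3 rose (15% each, against 8.14% and 9.97% of all genes). CAV1, the cholesterol-binding coat of caveolae, fell from 780, 712 and 695 CPM to 452, 443 and 404 CPM (-0.75, adjusted p = 0.000753), and TMEM97, which binds NPC1, fell by 0.38 on the log2 scale (adjusted p = 0.0221). LIMA1, which takes part in intestinal NPC1L1 transport, rose (0.57, adjusted p = 0.00305), as did VLDLR (0.34, adjusted p = 0.0403).

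Of 12 genes of sterol-regulated degradation in the endoplasmic reticulum and of SREBP retention, 1 fell (8.33%, against 8.14%) and 2 rose (16.7%, against 9.97%). RNF145, a sterol-responsive ubiquitin ligase, fell by 0.63 on the log2 scale (adjusted p = 0.00206), and PAQR3, which tethers SCAP and SREBP to the Golgi, rose by 0.80 (adjusted p = 0.00603). Of 13 genes of the fatty acid arm of SREBP, which SREBF1 chiefly serves, 4 fell (30.8%, against 8.14% of all genes) and none rose (against 9.97%). SCD, the stearoyl desaturase, went from 292, 324 and 276 CPM to 197, 162 and 188 CPM (-0.71, adjusted p = 0.0019), FADS2 had -0.69 (adjusted p = 0.00182), ELOVL6 -0.47 (adjusted p = 0.0115) and FASN, the fatty acid synthase, -0.45 (adjusted p = 0.0264). Lower without overlap were 5 of the 13 (38.5%, against 17.9% of all genes), these 4 among them. Over the 13, 10 were fitted lower and 3 higher, with a median log2 fold change of -0.12. Whether SREBF1 had a part in these falls was not tested.

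Of 10 other partners and targets of LXR 3 fell (30%, against 8.14% of all genes) and 1 rose (10%, against 9.97%). The partner receptors RXRA and RXRB fell by 0.35 and 0.44 on the log2 scale (adjusted p = 0.0202 and 0.0211). ABCG4, a sterol exporter, rose from 10, 14 and 12 counts to 34, 55 and 71 counts (2.06, adjusted p = 0.00474). The receptors that pair with LXR and this exporter thus went in opposite directions. Of the makers of oxysterols and bile acid precursors only HSD3B7 was expressed enough to be tested, and it fell from 19.3, 19.7 and 18.8 CPM to 10.4, 10.7 and 8.36 CPM (-0.97, adjusted p = 0.000839), while CH25H, CYP27A1 and CYP46A1 had at most 10 counts in a sample.

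Among these further genes, CAV1, LIMA1, RNF145, PAQR3, ABCG4, HSD3B7, SCD and FADS2 were called in each fit without 1 sample and in each alternative of normalization, filter or test. With library totals ERG28, TMEM97, RXRA and FASN lost their calls, with limma ERG28, RXRA, FASN and ELOVL6 did, and without a filter on low counts VLDLR did. ERG28, TMEM97 and RXRB lost theirs without vector replicate 1 or 3 or oeRNF112 replicate 1 or 3, RXRA without vector replicate 1 or any oeRNF112 sample, and VLDLR without any sample but vector replicate 2. FASN lost its call without vector replicate 1 or oeRNF112 replicate 1 or 2, and ELOVL6 without vector replicate 1 or oeRNF112 replicate 1.

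Markers of cell type moved with the groups as well. The summed level of 6 epithelial markers was 3528 to 4547 CPM in vector and 2709 to 3251 CPM in oeRNF112, and of the 5 tested KRT7 and KRT18 fell by 0.48 and 0.51 on the log2 scale while EPCAM, at a far lower level, rose (log2 fold change 0.84, adjusted p = 0.0208). That of 7 leukocyte markers was 32.1 to 35.8 CPM in vector and 55.2 to 69.8 CPM in oeRNF112. Most of it was CD68, a lysosomal protein (log2 fold change 1.21). Of the 5 leukocyte markers tested 4 were fitted lower, LAPTM5 among them (log2 fold change -0.88, adjusted p = 0.0308). PTPRC, which defines leukocytes, was at 37 to 54 counts in vector and 24 to 33 in oeRNF112. The summed level of 7 mesenchymal markers was 4010 to 4600 CPM and 3287 to 4185 CPM, nearly all of it VIM. VIM was at 3998 to 4588 CPM in vector and 3274 to 4173 CPM in oeRNF112, with overlapping groups. COL1A1 had 262 to 421 counts a sample, while COL1A2 and DCN had 0 or 1 count. The sum of 4 endothelial markers was at most 0.567 CPM. The part of these shifts in the results on sterol genes was not tested.

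**Figure D5:**
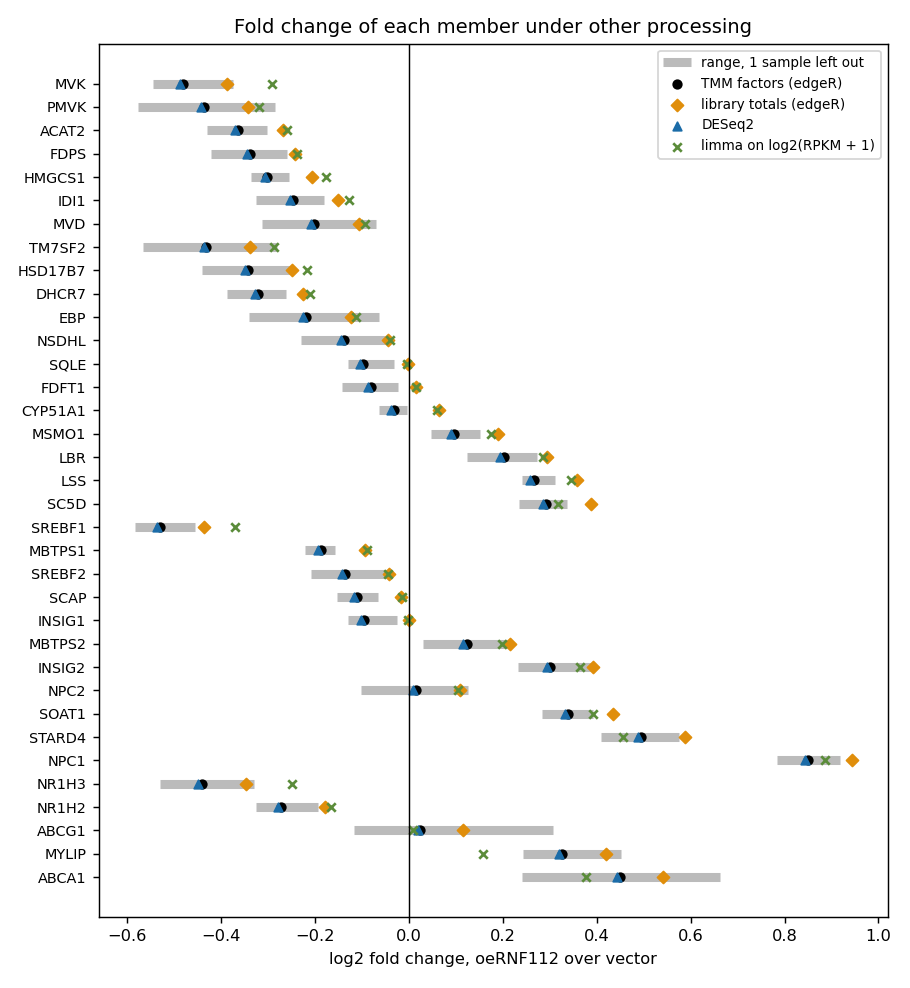
Log2 fold change of each of the 35 genes, oeRNF112 against vector, with TMM factors, library totals, DESeq2 and limma on log2(RPKM + 1) (symbols), and its range when each sample is left out in turn (grey bars). The symbols for library totals lie to the right of those for TMM factors, across 0 for FDFT1 and CYP51A1, while those of MVK and SREBF1 stay below 0 and those of NPC1 above 0.

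How far each of the 9 calls depended on processing differed. Beside the fits without 1 sample there were 7 alternatives in normalization, filter or test, and NPC1, SREBF1, STARD4 and SOAT1 were called in 7 of 7. ACAT2 was called in 6, MVK in 4, FDPS and DHCR7 in 3 and HMGCS1 in 2 of them. An edgeR fit with a replicate block, not among the 7, left only NPC1 of the 9 called, with SREBF1 at adjusted p = 0.0617. The 7 mevalonate enzymes nevertheless had a negative fold change under each of these and with every sample left out. With library totals, ACAT2, HMGCS1, MVK, FDPS and DHCR7 lost their calls, INSIG2, LSS and SC5D were called higher, and the median of the members was -0.02 against 0.0962 over all genes.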

How the data were processed

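Each of the 6 samples was sequenced once. Reads were trimmed and counted by the authors, and the submitters' processing notes name Trimmomatic 0.36, Subread 1.5.1, featureCounts and the build GRCh38. The aligner, the annotation and the strand setting are not given in the sources used here. The authors deposited raw counts per gene and RPKM values, and each RPKM was its count scaled by the sample's total and 1 length per gene for 20637 of 20637 genes compared (tolerance 0.001).

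Counts were analysed with edgeR 4.0.16 in R 4.3.3 (filterByExpr, TMM, quasi-likelihood test, 3 samples against 3), the study stating no test for its RNA-seq. TMM factors were 0.957 to 0.988 in vector and 1.01 to 1.05 in oeRNF112. Alternatives were DESeq2 1.42.0, its size factors in edgeR, library totals, other filters on low counts (none, or at least 10 in every sample), limma 3.58.1 on log2(RPKM + 1) or log2(RPKM + 0.1), a replicate block, and each sample left out. The edgeR, DESeq2 and limma fits to all 6 samples, without a replicate block, were tried on simulated counts. The ratios and motif searches were not. Ratios within samples were tested with scipy 1.17.1. No 2 samples were copies. Motifs and positions came from RefSeq (GRCh38.p14), and shared exon bases from the GENCODE annotation.

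The members and gene lists were chosen with earlier results of these data known. All 35 members, RNF112 and, of every other list, at most 5 genes with the smallest p-values were named. Marker genes, the genes sharing exon bases with members, CH25H, CYP27A1 and CYP46A1 were named beyond that rule, after their values had been seen. Some results on related genes are not reported here.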

Additional observations from a re-analysis of the deposited data

How the results depend on the processing

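Over the 7 alternatives in normalization, filter and test, the replicate block and the 6 fits without 1 sample, 31 of the 35 members kept one sign. The FDFT1 log2 fold change turned to 0.0149 with library totals and to 0.016 and 0.0166 with limma (pseudocounts 1 and 0.1), and the CYP51A1 log2 fold change to 0.0637, 0.0599 and 0.0622. With a sample left out, the ABCG1 log2 fold change ranged from -0.117 to 0.308 and the NPC2 log2 fold change from -0.101 to 0.127. In the same settings members called lower fell to 1 with library totals and 2 with either limma fit, members called higher rose to 6 in each, and the median log2 fold change of the members was -0.0175, -0.0142 and -0.015, while with either limma fit 73.6% and 73.8% of all called genes were higher. Library totals and RPKM values both leave out the TMM factors. DESeq2 called 12 members, adding LSS, NR1H3 and PMVK to the 9.

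With 1 sample left out, genes called over all tested were 1061 at fewest, with vector replicate 1 out, and 3387 at most, with vector replicate 2 out, while members called ranged from 2 to 13, members called lower from 1 to 9 and members called higher from 1 to 4. Members called numbered 5 without vector replicate 3 and 3 without oeRNF112 replicate 1 or 3.

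The deviations of same-numbered samples from their group means correlated at -0.116, -0.363 and -0.296. Those of differently numbered samples correlated at -0.0679 to 0.359, the highest for vector replicate 2 with oeRNF112 replicate 3. With 3 samples a group these values cannot decide whether samples were paired, and the labels state no pairing. With a replicate block, genes called over all tested were 876, 618 higher and 258 lower, members called were 1 (NPC1), with members called lower at 0 and members called higher at 1. Among the members, the smallest fold change called was that of HMGCS1, -0.301 on the log2 scale. Depth limits ABCG1 and MYLIP most, with at most 50 and 100 counts a sample.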
